A study of Mus musculus with 9 samples.

Results

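The genes described here encode the proteins of the cytosolic ribosome in mouse lymph nodes. They were taken by symbol from the deposited expression table: every entry named Rpl or Rps with a number, together with Rpsa, Rplp0, Rplp1 and Rplp2, without pseudogenes (symbols with -ps) and without the S6 kinases. This gave 85 of 37801 entries, of which 45 encode large subunit proteins, 31 small subunit proteins, 8 paralogs of such proteins and 1 (Rps19bp1) a protein that binds Rps19. RNA was sequenced from 3 groups with 3 libraries each. The wild-type (WT) mice were FVB/NJ, and the sources describe such controls as albino littermates without the transgene. The Tyr-NrasQ61K mice, on a crossed FVB/NJ background, express activated NRAS from the tyrosinase promoter, which is active in melanocytes, and are labelled Cre-negative and MHC-positive. The Tyr-NrasQ61K MHCII-KO mice (MHCII-KO below) carry the same transgene on the same crossed background and are labelled Cre-positive and MHC-negative. The labels give no age, do not name the deleted gene or the promoter of the Cre, and do not state whether each library is a different animal, so a p-value covers the spread between libraries and no more.

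A ribosome is built from a small subunit, which reads the mRNA, and a large subunit, which joins the amino acids. Each subunit is a scaffold of ribosomal RNA covered by many small proteins, almost all of them needed in equal numbers. Their mRNAs are among the most abundant of any cell and carry a tract of pyrimidines at the 5′ end (the TOP tract), through which growth signals by way of mTOR raise or lower their translation together. In lymph nodes, ribosomal proteins are made in quantity by lymphocytes, which grow before they divide.

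All values are FPKM, that is, fragments scaled by transcript length and library size as the authors' software estimated them. How many reads lie behind a value is not known. Relative depth could be read from few genes, by the ratio of low FPKM that occurred most often between a pair of libraries. With WT replicate 1 set to 1, Tyr-NrasQ61K replicate 2 was at 0.753, MHCII-KO replicate 2 at 0.870, Tyr-NrasQ61K replicate 3 at 0.659, and the other libraries between 1.33 and 1.68. The 3 lowest ratios were also those shared by the fewest genes, 2.07%, 2.30% and 1.51% of the genes used, against 2.89% to 5.64% for the others, so the order among them is uncertain. The replicate 2 libraries of Tyr-NrasQ61K and MHCII-KO lay apart from the other 7 on the first principal component of all genes tested. The labels name nevus melanocytes as the source, while the study sequenced lymph nodes, and the summed FPKM of 10 B cell markers was 722 to 2729 per library. The melanocyte marker Dct was at 0.051, 0 and 0.032 FPKM in the WT libraries, between 2.77 and 5.81 in the Tyr-NrasQ61K libraries and between 0.847 and 3.25 in the MHCII-KO libraries. H2-Ab1, an MHC class II chain, was at 108 to 271 FPKM in MHCII-KO libraries and at 149 to 276 in Tyr-NrasQ61K libraries, so the groups overlapped and the label was not visible in the RNA of the whole node.

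The 5′ ends of members that will recur in the results are shown first, because members are known for the TOP tract and because these genes lie at the ends of the range in the replicate 2 libraries. Each window runs from 20 bases before to the 10th base of the RefSeq transcript start, 5′ to 3′ on the gene's strand, from the GRCm38.p6 sequences of RefSeq. Capitals mark the longest unbroken run of C and T in the window. The first 4 genes are among those with the lowest mean deviation from their own median over the 9 libraries in the transgenic replicate 2 libraries, and the other 5 are those with the highest.
Rpl39 (chrX:37085213-37085242, minus strand): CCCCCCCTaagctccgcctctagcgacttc
Rpl31 (chr1:39367831-39367860, plus strand): caCCTCTTCCTCCTCgcctccccgtgaccc
Rps26 (chr10:128626497-128626526, minus strand): agcgggtcgggcaagccgccggaTCCTCTT
Rpl23 (chr11:97782430-97782459, minus strand): gctggacgaggTCCggtcacgtggctgagt
Rps2 (chr17:24720043-24720072, plus strand): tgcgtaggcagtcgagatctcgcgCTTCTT
Rps9 (chr7:3704021-3704050, plus strand): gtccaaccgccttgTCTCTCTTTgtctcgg
Rpl35 (chr2:39005122-39005151, minus strand): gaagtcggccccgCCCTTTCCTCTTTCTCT
Rplp2 (chr7:141447631-141447660, plus strand): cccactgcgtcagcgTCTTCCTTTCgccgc
Rps16 (chr7:28350669-28350698, plus strand): taaagcccgCTTCTgtcgtgacgtagcact

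RefSeq start sequences were matched for 64 members. A C at the start base followed by 4 bases that are each C or T, read on the gene's strand only, was present in 13 of 64 members (20.3%) and in 3.01% of all 27025 genes of that table. A run of 8 or more C and T anywhere within 20 bases on either side of the start, which can overlap the former, was present in 29 of 64 members (45.3%) and in 18.4% of all genes. The 29 tested members with such a run had a median log2 fold change of -0.95 in Tyr-NrasQ61K against WT, and the 32 tested members without it had a median of -0.88. In MHCII-KO against WT these medians were -0.94 and -0.81. For the C start the order was the other way round: the 13 tested members with it had medians of -0.79 and -0.84 in these comparisons, and the 48 without it -0.91 and -0.92. Members with and without either motif were not tested against each other, and a match describes the letters of the window only.

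In WT nodes the members were among the most abundant mRNAs. Of the 100 protein-coding genes with the highest FPKM, 61, 61 and 62 were members in WT replicates 1, 2 and 3. The number was 52, 44 and 55 in Tyr-NrasQ61K and 58, 47 and 54 in MHCII-KO replicates 1, 2 and 3. In each group the replicate 2 library held the fewest members in this list, or tied for the fewest in WT. The summed FPKM of the 85 members was 38741, 25120 and 45640 in the WT, 20673, 13163 and 28678 in the Tyr-NrasQ61K and 24486, 14093 and 20251 in the MHCII-KO libraries. The group means were 36500 ± 10442 (SD, n = 3) in WT, 20838 ± 7759 (SD, n = 3) in Tyr-NrasQ61K and 19610 ± 5226 (SD, n = 3) in MHCII-KO. WT replicate 2 was the lowest WT library and lay below Tyr-NrasQ61K replicate 3, so the groups overlapped in this sum for Tyr-NrasQ61K, whereas all MHCII-KO libraries lay below all WT libraries.

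To compare libraries over all members, each member's log2(FPKM + 1) was set against its own median over the 9 libraries, for the 82 members that passed the filter on low values (at least 3 libraries with an FPKM of 1 or more). The median deviation was 0.72, 0.07 and 0.93 in the WT libraries, with every one of the 82 members above its own median in WT replicates 1 and 3. It was -0.18, -0.86 and 0.12 in the Tyr-NrasQ61K and 0.02, -0.77 and -0.20 in the MHCII-KO libraries. Over all 16587 genes tested, the corresponding medians were 0.20, -0.02 and 0.20 in WT, -0.0038, -0.21 and 0.21 in Tyr-NrasQ61K and 0, -0.21 and 0 in MHCII-KO libraries. Of these genes 11045 lay above their own median in WT replicate 1 and 10863 in WT replicate 3. WT replicates 1 and 3 were thus high and the transgenic replicate 2 libraries low over all genes as well, by less than over the members. Of the 82 members, 51 had their lowest value of the 9 libraries in Tyr-NrasQ61K replicate 2 and 23 in MHCII-KO replicate 2. The highest value was in WT replicate 3 for 63 members and in WT replicate 1 for 15. Counts of lowest and highest libraries were not made over all genes tested.

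**Figure D1:**
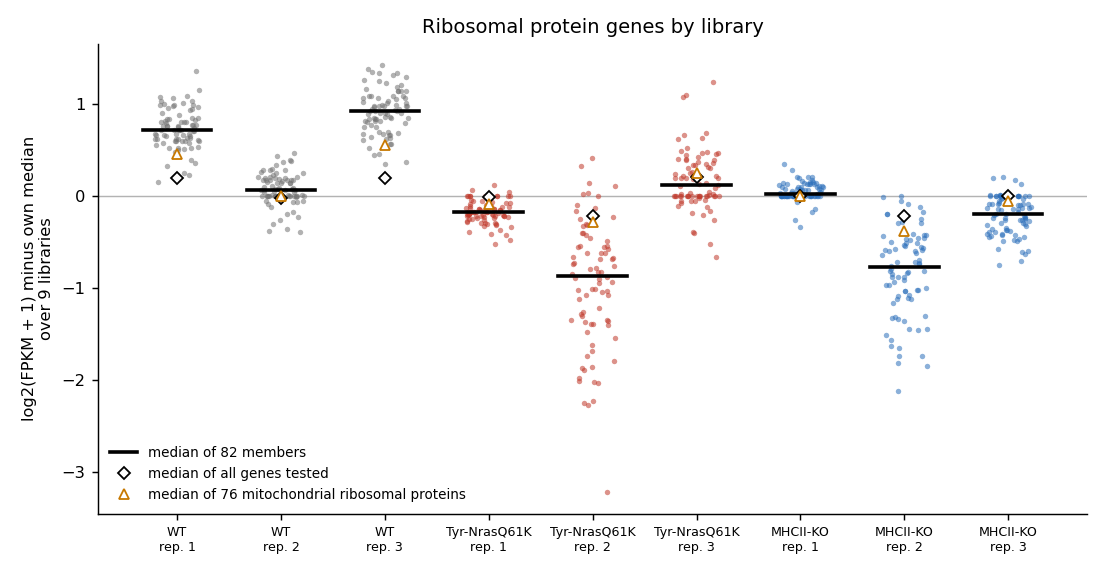
Deviation of each of 82 ribosomal protein genes (points) from its own median over 9 libraries, in log2(FPKM + 1), by library; black lines are medians over the members, diamonds medians over all genes tested and triangles medians over 76 mitochondrial ribosomal protein genes. The members lie highest in WT replicates 1 and 3 and lowest, and most widely spread, in the replicate 2 libraries of Tyr-NrasQ61K (median -0.86) and MHCII-KO (median -0.77).

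The comparison of Tyr-NrasQ61K with WT asks how the RNA of a node that holds oncogene-expressing melanocytes differs from that of a WT node. The mice also differ in the background given, FVB/NJ in WT and crossed FVB/NJ in both transgenic groups. Transgene and background therefore cannot be told apart in either comparison with WT. By limma on log2(FPKM + 1), with Benjamini-Hochberg adjustment over all genes tested, none of the 82 members was called at an adjusted p of 0.05 or less, where 39 of 16587 genes (0.235%) were. The lowest adjusted p of a member was 0.256. The log2 fold change was nevertheless below 0 for 81 of the 82 members, with a median of -0.88 and a range from -2.15 to 0.19, against a median of -0.12 over all genes tested, of which 9803 of 16587 were below 0. An unadjusted p under 0.05 in the lower direction was reached by 28 members (34.1%), and by 8.43% of all genes tested. In 35 members (42.7%) all 3 Tyr-NrasQ61K libraries lay below all 3 WT libraries, as they did in 10.5% of all genes tested. That count was again 35 when Tyr-NrasQ61K replicate 2 was left out, and was 71 when WT replicate 2 was left out (11.7% and 33.7% of all genes). Leaving out a library can only keep or raise such a count, so an unchanged count is no test of that library's part. No member had an unadjusted p under 0.05 in the higher direction.

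The comparison of MHCII-KO with WT gave a similar description, and since both share the WT libraries the results are not independent. No member was called, where 24 genes (0.145%) were, and the lowest adjusted p of a member was 0.329. All 82 members had a log2 fold change below 0, with a median of -0.86 and a range from -1.98 to -0.16, against -0.22 over all genes tested, of which 11191 of 16587 were below 0. An unadjusted p under 0.05 in the lower direction was reached by 24 members (29.3%) and by 11.5% of all genes tested. In 48 members (58.5%) the libraries of the groups did not overlap, and the same held for 23.4% of all genes tested. Without MHCII-KO replicate 2 the count was again 48, and without WT replicate 2 it was 82 (25.1% and 49.4% of all genes). Here too the count could not fall.

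MHCII-KO and Tyr-NrasQ61K nodes, which both carry the transgene, were compared as labelled. The labels differ in Cre as well as in MHC class II, so Cre and deletion cannot be told apart. As given above, the MHC label was not visible in H2-Ab1 RNA. The median log2 fold change of the members was 0.01, with 40 of 82 below 0 and a range from -0.47 to 0.33. Over all genes tested, 11275 of 16587 were below 0. No member was called, against 8 genes (0.0482%), and none had an unadjusted p under 0.05 in either direction, against 1.28% of all genes in the lower direction. The 4 members with the smallest p were Rpl35, Rps19bp1, Rpl7a and Rpl21, with unadjusted p between 0.302 and 0.451 by limma. The direction of this median depended on the scaling. Scaling every library to the same FPKM sum gave -0.38 with all 82 members below 0, where the median of all genes tested was -0.42. Median-ratio scaling gave 0.10, against -0.01 over all genes. The value of -0.38 thus went with a shift of all genes and was not particular to the members.

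Because the median of all genes tested was itself below 0 in all 3 comparisons, the members are also given relative to it. The members' median lay 0.76 lower than that of all genes in Tyr-NrasQ61K against WT, 0.64 lower in MHCII-KO against WT and 0.09 higher in MHCII-KO against Tyr-NrasQ61K. With median-ratio scaling, which brought the median of all genes to 0.03, 0.02 and -0.01, the members' medians were -0.68, -0.57 and 0.10. None of the other scalings, filters or omissions gave a member that was called, but weights estimated for each library did: limma's arrayWeights called 74 of 82 members lower in each comparison with WT, along with 5076 and 7407 of all genes, after giving Tyr-NrasQ61K replicate 2 a weight of 0.197 and MHCII-KO replicate 3 one of 5.22. The number of members at an unadjusted p under 0.05 moved with single libraries, from 28 to 2 without WT replicate 3, 3 without WT replicate 1, 4 without Tyr-NrasQ61K replicate 2, 11 without MHCII-KO replicate 3, 17 without MHCII-KO replicate 1, 46 without WT replicate 2 and 52 without Tyr-NrasQ61K replicate 3. For MHCII-KO against WT it moved from 24 to 0 without WT replicate 3 or MHCII-KO replicate 2, 2 without WT replicate 1, 4 without MHCII-KO replicate 3, 12 without Tyr-NrasQ61K replicate 1, 45 without WT replicate 2 and 47 without Tyr-NrasQ61K replicate 2. The share of all genes at that p in each of these fits is not given here, so the counts do not describe the members alone. Over these omissions the members' median minus that of all genes ran from -0.90 to -0.58 in Tyr-NrasQ61K and from -0.79 to -0.52 in MHCII-KO against WT.

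**Figure D2:**
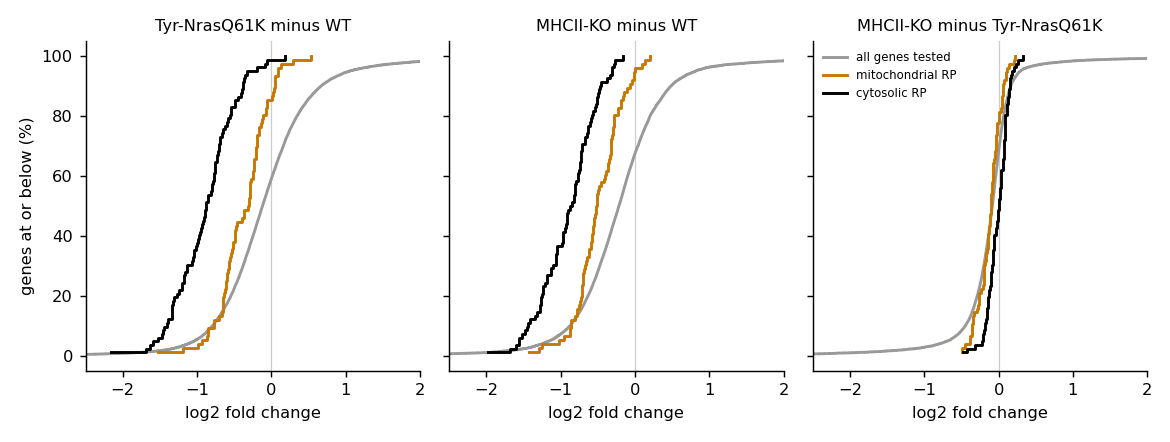
Cumulative share of genes (percent, vertical axis) at or below each log2 fold change (horizontal axis, log2(FPKM + 1) scale) for all 16587 genes tested (grey; those beyond the axis are not drawn), 76 mitochondrial (orange) and 82 cytosolic (black) ribosomal protein (RP) genes. Against WT the black curves lie left of the grey ones, with medians of -0.88 and -0.86 against -0.12 and -0.22, and in the panel on the right the curves cross near 0.

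Large and small subunit genes lay at like levels below WT. The median log2 fold change in Tyr-NrasQ61K against WT was -0.88 over 45 large subunit and -0.89 over 31 small subunit genes, and in MHCII-KO against WT it was -0.88 and -0.84. The 4 members with the smallest p in Tyr-NrasQ61K against WT were Rpl21 and Rpl7a of the large subunit, Rps23 of the small subunit and the paralog Rpl7l1. Rps23 (ENSMUSG00000049517, chr13:90922958-90924950, mm10), a protein of the decoding center, was at 775, 506 and 950.5 FPKM in the WT, 365, 195 and 327 in the Tyr-NrasQ61K and 401, 193 and 309 in the MHCII-KO libraries. All 6 libraries with the transgene lay below the 3 WT libraries. Its log2 fold change was -1.33 (SE 0.43, adjusted p = 0.277, limma) in Tyr-NrasQ61K and -1.32 (SE 0.43, adjusted p = 0.329, limma) in MHCII-KO against WT. Rpl21 was at 70.2, 43.8 and 69.6 FPKM in the WT, 37.8, 25.02 and 28.4 in the Tyr-NrasQ61K and 43.8, 27.8 and 36.5 in the MHCII-KO libraries. Its log2 fold change in Tyr-NrasQ61K against WT was -0.98 (SE 0.30, adjusted p = 0.256, limma), the smallest p of any member. In MHCII-KO, replicate 1 came up to the level of WT replicate 2, so that the groups met but did not overlap. Rpl7a was at 96.7, 55.6 and 97.0 FPKM in the WT, 48.2, 24.6 and 30.2 in the Tyr-NrasQ61K and 61.9, 26.7 and 43.6 in the MHCII-KO libraries. The Tyr-NrasQ61K libraries lay below all WT libraries, with a log2 fold change of -1.26 (SE 0.40, adjusted p = 0.273, limma), and the MHCII-KO libraries overlapped with WT.

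In MHCII-KO against WT the 4 smallest p belonged to Rps23, Rpl37, Rpl7l1 and Rps7. Rpl37, a zinc-binding protein of the large subunit, was at 135, 88.1 and 171 FPKM in the WT, 64.6, 25.4 and 66.6 in the Tyr-NrasQ61K and 74.6, 30.2 and 43.3 in the MHCII-KO libraries. Rps7, a small subunit protein that also takes part in the processing of ribosomal RNA, was at 415, 272 and 480.4 FPKM in the WT, 186, 82.5 and 214 in the Tyr-NrasQ61K and 226, 95.3 and 175 in the MHCII-KO libraries. For both genes all 6 transgenic libraries lay below all WT libraries, and the replicate 2 library was the lowest of its group in each of the 3 groups. The log2 fold change in MHCII-KO against WT was -1.44 (SE 0.49, adjusted p = 0.329, limma) for Rpl37. For Rps7 it was -1.28 (SE 0.49, adjusted p = 0.329, limma).

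Members with known further roles lay in the same range. Rps6, the substrate of the S6 kinases, was at 505, 342 and 584 FPKM in the WT, 270.4, 249.6 and 285 in the Tyr-NrasQ61K and 323, 241 and 296 in the MHCII-KO libraries, without overlap with WT in either group. Its log2 fold change in Tyr-NrasQ61K against WT was -0.79 (SE 0.32, adjusted p = 0.320, limma). Rpsa, which is also known as the laminin receptor, was at 323, 202 and 359 FPKM in the WT, 162, 148 and 153 in the Tyr-NrasQ61K and 196, 133 and 183 in the MHCII-KO libraries, again without overlap. Its log2 fold change in Tyr-NrasQ61K against WT was -0.89 (SE 0.32, adjusted p = 0.313, limma). In Rps6 and Rpsa the replicate 2 libraries of the transgenic groups stood less far below replicates 1 and 3 than in most members. Rps27a, which is made as a fusion with ubiquitin, was at 355, 249.8 and 394 FPKM in the WT, 207, 170 and 239 in the Tyr-NrasQ61K and 250.1, 208 and 247 in the MHCII-KO libraries. The gene was lower in all Tyr-NrasQ61K than in all WT libraries, while MHCII-KO replicate 1 reached WT replicate 2. Rpl5 and Rpl11, which with 5S ribosomal RNA can bind Mdm2 and so link ribosome assembly to p53, had log2 fold changes of -0.41 and -0.54 in Tyr-NrasQ61K (adjusted p = 0.482 and 0.491, limma) and of -0.54 and -0.72 in MHCII-KO against WT (adjusted p = 0.379 and 0.378, limma). Rps19, the gene most often mutated in Diamond-Blackfan anemia, was at 634, 388 and 561 FPKM in the WT, 317, 313 and 627 in the Tyr-NrasQ61K and 410.2, 272 and 368 in the MHCII-KO libraries. Tyr-NrasQ61K replicate 3 was thus within the WT range, as it was for 41 of the 82 members. Its binding partner gene Rps19bp1 was low in every library, at 3.22 to 6.77 FPKM.

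The proteins of the P-stalk, through which elongation factors are drawn to the large subunit, differed among themselves. Rplp0, the base of the stalk, was at 552, 383 and 689.7 FPKM in the WT, 329, 181 and 394 in the Tyr-NrasQ61K and 411, 187 and 362 in the MHCII-KO libraries. Rplp1 was at 1265, 757 and 1450 FPKM in the WT, 718, 708 and 819.7 in the Tyr-NrasQ61K and 842, 687 and 826 in the MHCII-KO libraries. Rplp2, the partner of Rplp1, was at 488, 338 and 539.9 FPKM in the WT, 299.7, 458 and 573 in the Tyr-NrasQ61K and 379, 401 and 416 in the MHCII-KO libraries. In the transgenic replicate 2 libraries Rplp0 was far below replicates 1 and 3, Rplp1 less far below them and Rplp2 between them. In Tyr-NrasQ61K against WT the log2 fold changes were -0.88 (SE 0.46) for Rplp0, -0.58 (SE 0.37) for Rplp1 and -0.06 (SE 0.36) for Rplp2, with adjusted p of 0.358, 0.421 and 0.939 by limma. The groups overlapped for all 3 genes.

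The 8 members with the highest mean log2(FPKM + 1) over the 9 libraries were Rpl13a, Rps27, Rplp1, Rps9, Rps21, Rps14, Rpl32 and Rps15. Rpl13a, a large subunit protein that can leave the ribosome in interferon-treated cells, was the highest, at 1781, 1240 and 2123 FPKM in the WT, 1050, 674 and 1910 in the Tyr-NrasQ61K and 1260, 870.4 and 892 in the MHCII-KO libraries. Rps27 was at 1744, 1256 and 2212 FPKM in the WT, 931, 294 and 1455 in the Tyr-NrasQ61K and 1097, 402 and 783 in the MHCII-KO libraries. For these genes Tyr-NrasQ61K replicate 3 lay within the WT range and replicate 2 far below it. For Rps21, Rps14 and Rps15 the log2 fold changes in Tyr-NrasQ61K against WT were -0.70, -0.55 and -0.45, with adjusted p from 0.443 to 0.568 by limma. The groups overlapped for each of the 8 genes in Tyr-NrasQ61K against WT, and did not for Rps27, Rps14 and Rpl32 in MHCII-KO against WT. At the other end of the scale, Rpl29 had the lowest level of the subunit proteins named here, at 39.8, 19.99 and 39.4 FPKM in the WT, 23.0, 14.6 and 17.3 in the Tyr-NrasQ61K and 28.3, 13.7 and 26.2 in the MHCII-KO libraries.

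**Figure D3:**
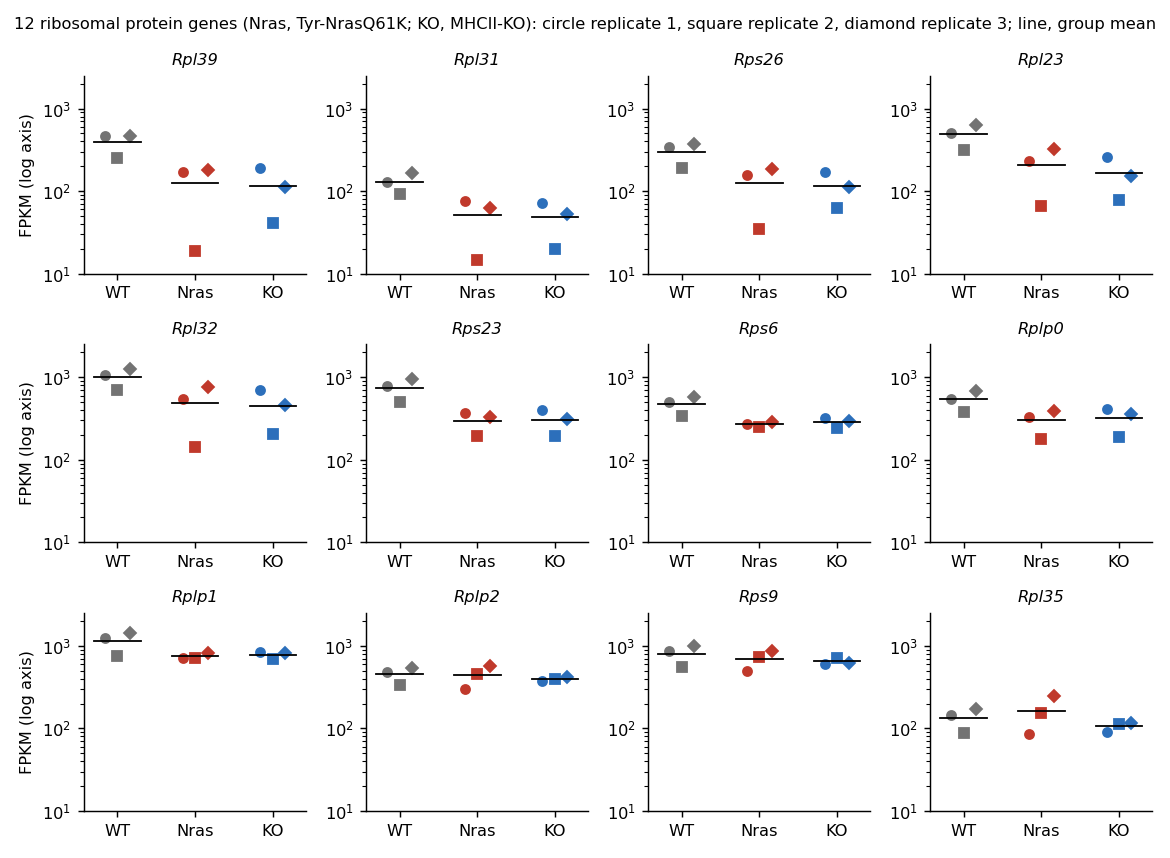
FPKM (vertical log axis) of 12 members in WT (grey), Tyr-NrasQ61K (Nras, red) and MHCII-KO (KO, blue) libraries; circles are replicate 1, squares replicate 2, diamonds replicate 3, and lines mark the mean of 3 libraries. In the top row and for Rpl32 the transgenic replicate 2 libraries lie far below their group, for example at 18.7 FPKM for Rpl39, while for Rplp2, Rps9 and Rpl35 they lie above replicate 1.

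In 4 pairs the paralog made up a similar share of its pair in the 3 groups. Rpl22l1, which can replace Rpl22 in the large subunit, was at 103, 58.9 and 101 FPKM in the WT, 47.4, 29.5 and 58.8 in the Tyr-NrasQ61K and 53.2, 31.7 and 52.2 in the MHCII-KO libraries, without overlap with WT in either group. Its share of the summed FPKM of the pair was 18.8% ± 1.34 (SD, n = 3) in WT, 18.1% ± 1.80 (SD, n = 3) in Tyr-NrasQ61K and 19.3% ± 0.724 (SD, n = 3) in MHCII-KO. Rpl22 and Rpl22l1 were thus high and low in the same libraries. Rpl36al made up 23.7% ± 2.03 (SD, n = 3) of its pair with Rpl36a in WT, 24.0% ± 3.08 (SD, n = 3) in Tyr-NrasQ61K and 26.1% ± 3.39 (SD, n = 3) in MHCII-KO. Rps27l, a target of p53, made up 3.04% ± 0.525 (SD, n = 3) of its pair with Rps27 in WT, 3.30% ± 0.538 (SD, n = 3) in Tyr-NrasQ61K and 3.14% ± 0.455 (SD, n = 3) in MHCII-KO. Rpl7l1 made up 3.01% ± 0.473 (SD, n = 3) of its pair with Rpl7 in WT, 3.11% ± 0.765 (SD, n = 3) in Tyr-NrasQ61K and 3.58% ± 0.232 (SD, n = 3) in MHCII-KO. For each of these 4 pairs the group means differed by less than the largest SD of a group, and the shares were not tested. Rps4y2, which current annotation calls Rps4l and a processed pseudogene, was at 0.771 to 3.24 FPKM beside 197 to 964 for its relative Rps4x on the X chromosome.

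The 3 members that did not pass the filter were paralogs. Rpl3l, which replaces Rpl3 in heart and skeletal muscle, was at 0.0878, 0.278 and 0.166 FPKM in the WT, 0.321, 0.234 and 0.678 in the Tyr-NrasQ61K and 0.673, 0.505 and 0.627 in the MHCII-KO libraries. All MHCII-KO libraries were above all WT libraries, at levels where an FPKM rests on very few fragments, and the gene was not tested. Its share of the summed FPKM with Rpl3 was 0.0622% ± 0.0502 (SD, n = 3) in WT, 0.204% ± 0.0994 (SD, n = 3) in Tyr-NrasQ61K and 0.287% ± 0.0138 (SD, n = 3) in MHCII-KO, a difference between MHCII-KO and WT beyond these SDs that was not tested. The summed FPKM of 7 skeletal muscle markers was 4.4 to 30.4 in the MHCII-KO, 5.4 to 15.4 in the Tyr-NrasQ61K and 6.30 to 12.3 in the WT libraries. Rpl39l, known from testis, was at 0 to 0.811 FPKM. Rpl10l, also of the testis, was listed at 0 in every library.

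The replicate 2 libraries were then compared with the mean of replicates 1 and 3 of their own group, for the 80 members with a mean FPKM of at least 10. All 3 were lower. The median difference on the log2 scale was -0.75 in WT, -0.87 in Tyr-NrasQ61K and -0.70 in MHCII-KO, against -0.42, -0.44 and -0.29 over 4063 protein-coding genes with the same minimum. The libraries differed in how far the members were spread. In WT all 80 members were lower by 0.51 to 1.06, with an SD over members of 0.11. In Tyr-NrasQ61K the differences ran from -3.18 to 0.62 with an SD of 0.69, and in MHCII-KO from -1.80 to 0.23 with an SD of 0.42. Over the protein-coding genes the SD was 0.44 in WT, 0.69 in Tyr-NrasQ61K and 0.50 in MHCII-KO. By the SD the members were thus less spread than those genes in WT and MHCII-KO and equally spread in Tyr-NrasQ61K. In MHCII-KO, however, the differences of those genes ran from -8.70 to 5.98, which widens their SD. Their quartiles there were -0.54 and -0.02, and those of the members -1.03 and -0.49, a similar width. A difference of -1 or lower was seen in 1 member in WT (1.25%, against 4.97% of the protein-coding genes), 35 in Tyr-NrasQ61K (43.8%, against 20.6%) and 21 in MHCII-KO (26.3%, against 4.11%).

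The members at the ends of this range were shared by the transgenic groups. The replicate 2 differences of Tyr-NrasQ61K and MHCII-KO, which share no library, were correlated across the 80 members. Pearson's r was 0.89 and Spearman's rho 0.88, against 0.69 and 0.77 over 4063 protein-coding genes. With the replicate 2 difference of WT the r over members was 0.28 for Tyr-NrasQ61K and 0.30 for MHCII-KO. Over the protein-coding genes it was 0.28 and 0.21. These are correlations across genes within single libraries, which share the annotation, the transcript lengths and any common handling, so the genes are not independent replicates and no p is given. Over the members the Spearman's rho of the difference with coding length was 0.46 in Tyr-NrasQ61K, 0.32 in MHCII-KO and 0.28 in WT, and with the GC content of the coding sequence 0.29, 0.31 and -0.06. Over the protein-coding genes the values for coding length were 0.17, 0.13 and 0.50, and for GC content 0.51, 0.42 and -0.07. Members have short coding sequences, with a median of 453 bases against 1344 for other protein-coding genes tested, and a median GC content of 52.6%, against 52.7%. The part of length, GC content or depth in these differences was not tested.

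**Figure D4:**
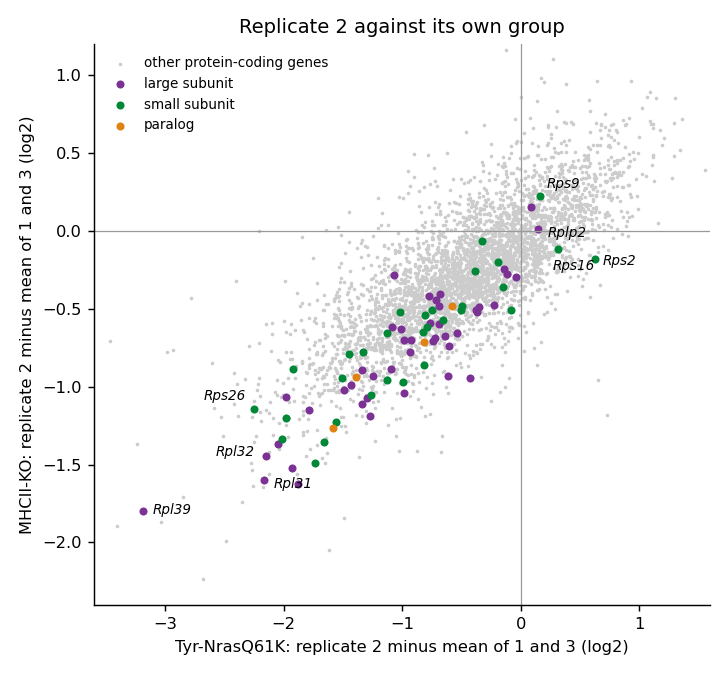
Replicate 2 minus the mean of replicates 1 and 3 of the same group, in log2(FPKM + 1), for Tyr-NrasQ61K (horizontal) and MHCII-KO (vertical); coloured points are 80 members and grey points 3983 other protein-coding genes with a mean FPKM of at least 10, of which 24 lie outside the axes. The members spread along the diagonal from Rpl39 at the lower left to Rps9 at the upper right, with a Pearson's r of 0.89.

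Rpl39 (ENSMUSG00000079641, chrX:37082520-37085402, mm10), a very small protein of the wall of the exit tunnel, had the lowest value. It was at 471, 249 and 469 FPKM in the WT, 173, 18.7 and 183 in the Tyr-NrasQ61K and 189.7, 41.2 and 112 in the MHCII-KO libraries. Its coding sequence of 153 bases is short even for a ribosomal protein. All transgenic libraries lay below all WT libraries, and the log2 fold change of -2.15 (SE 0.91, adjusted p = 0.323, limma) in Tyr-NrasQ61K against WT was the lowest of all members. Rpl31 (ENSMUSG00000073702, chr1:39367842-39371911, mm10), which lies beside the exit of the same tunnel, was at 129.7, 92.7 and 167 FPKM in the WT, 75.4, 14.5 and 62.1 in the Tyr-NrasQ61K and 71.7, 19.6 and 52.5 in the MHCII-KO libraries. Rps26 (ENSMUSG00000025362, chr10:128624534-128626747, mm10), which sits where the mRNA leaves the small subunit, was at 345, 193 and 368 FPKM in the WT, 156, 34.8 and 184 in the Tyr-NrasQ61K and 172, 61.9 and 111 in the MHCII-KO libraries. In Rpl31 and Rps26, too, no transgenic library reached the lowest WT library. Rpl23, which with Rpl5 and Rpl11 is among the members that bind Mdm2, was at 506, 318 and 642 FPKM in the WT, 231, 65.2 and 322 in the Tyr-NrasQ61K and 260.3, 77.2 and 154 in the MHCII-KO libraries. Rpl32 was at 1075, 694 and 1260 FPKM in the WT, 553, 145 and 758 in the Tyr-NrasQ61K and 693, 206 and 458 in the MHCII-KO libraries. For Rpl23 and Rpl32, Tyr-NrasQ61K replicate 3 lay within the WT range and replicate 2 far below it. These 5 genes have the lowest mean deviation in the transgenic replicate 2 libraries, so their low values there are what chose them.

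At the other end were Rpl35, Rps2, Rplp2, Rps9 and Rps16. Rps9 (ENSMUSG00000006333, chr7:3703993-3706897, mm10), a small subunit protein that helps to form the entry of the mRNA channel, was at 860.2, 562 and 986 FPKM in the WT, 503, 736 and 860.5 in the Tyr-NrasQ61K and 603, 721 and 629.8 in the MHCII-KO libraries. The libraries of the 3 groups overlapped, and the log2 fold change was -0.19 (SE 0.38, adjusted p = 0.791, limma) in Tyr-NrasQ61K and -0.27 (SE 0.38, adjusted p = 0.701, limma) in MHCII-KO against WT. With median-ratio scaling the log2 fold changes of Rps9 and Rplp2 were slightly above 0 in both comparisons. Rpl35 (ENSMUSG00000062997, chr2:39001580-39005624, mm10), a large subunit protein at the tunnel exit, was at 144, 88.3 and 171 FPKM in the WT, 85.6, 154 and 245 in the Tyr-NrasQ61K and 91.3, 114 and 115 in the MHCII-KO libraries. It was the only member with a log2 fold change above 0 in Tyr-NrasQ61K against WT, 0.19 (SE 0.43, adjusted p = 0.823, limma), a sign that turned without WT replicate 2 and without Tyr-NrasQ61K replicate 3. Rps2 was at 146.5, 77.0 and 146.2 FPKM in the WT, 77.6, 103 and 56.4 in the Tyr-NrasQ61K and 81.5, 77.0 and 93.5 in the MHCII-KO libraries. Rps16 was at 159, 108 and 292 FPKM in the WT, 106, 154 and 142 in the Tyr-NrasQ61K and 141, 131 and 144 in the MHCII-KO libraries. In Tyr-NrasQ61K, replicate 2 was the highest library of the group for Rps2 and Rps16, in contrast to the genes at the lower end. Rps9, Rplp2 and Rps16 are 3 of the 14 members on chromosome 7, the chromosome with the most members.

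**Figure D5:**
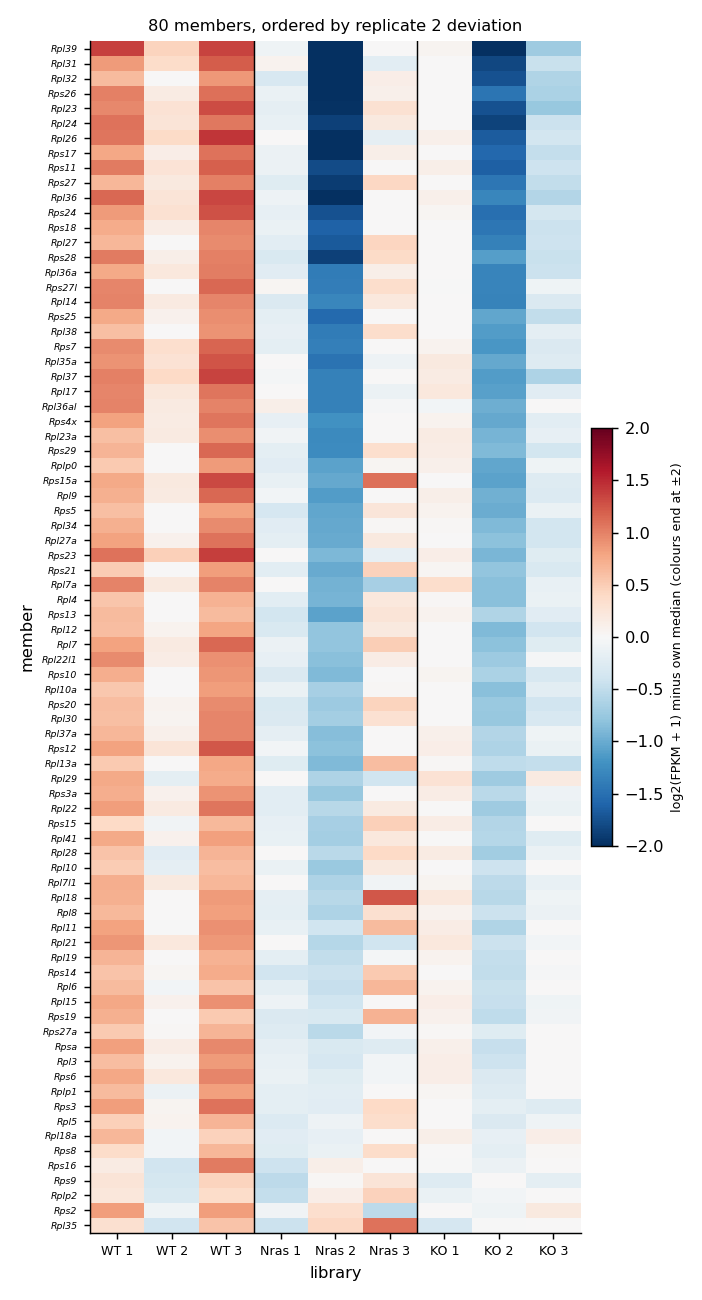
Deviation of each of 80 members (rows) from its own median over 9 libraries (columns; Nras, Tyr-NrasQ61K; KO, MHCII-KO), in log2(FPKM + 1), ordered by the mean deviation in the transgenic replicate 2 libraries; red is above and blue below the median, and colours end at 2 on either side. WT replicates 1 and 3 are red throughout, the transgenic replicate 2 libraries run from dark blue at Rpl39 to near white at Rpl35, and in Tyr-NrasQ61K replicate 3 single members such as Rpl18 stand out in red.

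Tyr-NrasQ61K replicate 3 differed from its group in another way. It had 4 members above all WT libraries (Rpl18, Rpl35, Rpl6 and Rplp2), 41 within the WT range and 37 below it, whereas replicate 1 had 76 below and replicate 2 had 75 below. The share of members below all WT libraries in replicates 1, 2 and 3 was 92.7%, 91.5% and 45.1%, against 38.2%, 52.4% and 16.1% of all genes tested. Of all genes 42.7% lay above all WT libraries in replicate 3, against 16.1% and 23.9% in replicates 1 and 2, so replicate 3 was high over all genes as well. In the MHCII-KO libraries 48, 78 and 66 members (58.5%, 95.1% and 80.5%) lay below all WT libraries, against 34.5%, 53.8% and 37.8% of all genes, and none above. Ribosomal protein genes have many processed pseudogenes, from which their reads cannot always be told apart, so the values of single members are uncertain to that extent. The table held 172 entries for such pseudogenes, of which 127 passed the filter, and their summed FPKM ranged from 3833 to 6761 over the WT libraries, from 1886 to 6990 over Tyr-NrasQ61K and from 2007 to 3750 over MHCII-KO. In Tyr-NrasQ61K replicate 3 the median deviation of the pseudogenes was 0.92, against 0.12 for the members, while in Tyr-NrasQ61K replicate 2 it was -1.0 and in WT replicate 3 it was 0.79. In Tyr-NrasQ61K replicate 3, 48 of 82 members lay above their own median, against 12456 of all 16587 genes tested, whose median deviation was 0.21. The members thus stood no higher than all genes there, and the pseudogenes lay further above their own medians than either. The part of shared reads in this was not tested. The identifier of the Rpl24 entry is that of its neighbour Zbtb11 in the annotation used here, so its value is uncertain and it is not named among the results.

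Other genes of translation, from lists drawn up from general knowledge, were lower in the same libraries to differing degrees. Of 6 elongation factor genes none was called in any comparison, and the median log2 fold change was -0.47 in Tyr-NrasQ61K and -0.49 in MHCII-KO against WT. Eef1a1, the factor that brings aminoacyl-tRNA to the ribosome, was at 2706, 1790 and 3017 FPKM in the WT, 1470, 868 and 2098 in the Tyr-NrasQ61K and 1685, 913 and 1388 in the MHCII-KO libraries. Of 15 other genes whose mRNAs carry a TOP tract none was called, and the medians were -0.72 and -0.73. Among them is Fau, which encodes a small subunit protein as a fusion and whose symbol falls outside the rule. Fau was at 361, 247 and 383 FPKM in the WT, 205.1, 205.2 and 316 in the Tyr-NrasQ61K and 274, 249 and 255 in the MHCII-KO libraries, and overlapped with WT in both groups. In Tyr-NrasQ61K, replicate 2 was level with replicate 1 for Fau, and in MHCII-KO it was the lowest of the group by a few FPKM, whereas for Rpl39 and Rps26 it was far below both other libraries in each group.

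Genes that build ribosomes in the nucleolus lay near the background. Of 24 such genes none was called, 12 were below 0 in Tyr-NrasQ61K and 15 in MHCII-KO against WT, and the medians of -0.07 and -0.15 were close to the -0.12 and -0.22 of all genes tested. Ncl, which encodes nucleolin, was at 11.2, 12.1 and 13.02 FPKM in the WT, 14.7, 15.5 and 16.7 in the Tyr-NrasQ61K and 15.1, 12.6 and 16.8 in the MHCII-KO libraries. The 76 genes tested for proteins of the mitochondrial ribosome, which makes the proteins encoded by mitochondrial DNA, had medians of -0.31 and -0.52 with none called, between those of all genes and those of the cytosolic ribosome. Other protein-coding genes with a coding sequence of 600 bases or less, 1652 of those tested, had medians of -0.38 and -0.46, also between these.

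The replicate spread set what these comparisons could show. The median SD of log2(FPKM + 1) within a group was 0.45 in WT, 0.58 in Tyr-NrasQ61K and 0.42 in MHCII-KO over the 82 members, against 0.28, 0.42 and 0.26 over all genes tested. The median spread within a group was thus larger for the members than for all genes in each of the 3 groups. Without Tyr-NrasQ61K replicate 2 and MHCII-KO replicate 2 the members' median log2 fold changes against WT were -0.59 and -0.67, with 80 and 82 of 82 below 0, 9 and 11 at an unadjusted p under 0.05 and none called. Over all genes tested the medians in this fit were -0.0084 and -0.15, and 35 and 23 genes were called. The share of all genes at that unadjusted p in this fit is not given here.

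The cell types of a node can set the level of these genes as well, and in whole tissue fewer cells of a type and less RNA per cell cannot be told apart. The summed FPKM of 10 T cell markers was 198 to 324 in the WT, 152 to 371 in the Tyr-NrasQ61K and 148 to 249.8 in the MHCII-KO libraries. The sum of 10 B cell markers was 1368 to 2729, 722 to 2188 and 1087 to 2609 in the same order of groups, and that of 9 macrophage markers 680.4 to 1483, 672 to 1580 and 838 to 1461. The groups overlapped in all 3 of these lists, and in each list the lowest sum of each group was that of replicate 2, as it was for the members. Of the 10 T cell markers 8 were below 0 in each comparison with WT, with medians of -0.70 in Tyr-NrasQ61K and -0.59 in MHCII-KO, 4 and 3 at an unadjusted p under 0.05 in the lower direction and none called. Cd3e and Cd4 were the markers above 0 in both comparisons, and Cd4, singled out after its values were seen, was at 59.0, 30.4 and 59.8 FPKM in the WT, 106, 55.9 and 176 in the Tyr-NrasQ61K and 91.4, 63.8 and 105 in the MHCII-KO libraries, and had a large part in the summed level. The sum of 8 adipocyte markers was 302 to 539.5 in the WT, 63.5 to 226 in the Tyr-NrasQ61K and 84.6 to 197 in the MHCII-KO libraries, and 8 of 8 had a log2 fold change below 0 in both comparisons with WT, none of them called. The sum of 10 melanocyte markers was 11.6 to 16.8, 111 to 225 and 119.5 to 178 in WT, Tyr-NrasQ61K and MHCII-KO libraries, of which 7 were tested and 2 and 1 were called higher against WT. Gpnmb made up most of the transgenic sums, at 204, 96.4 and 151 FPKM in the Tyr-NrasQ61K and 109, 148 and 161 in the MHCII-KO libraries. It was the marker called in MHCII-KO, and Gpnmb and Dct were those called in Tyr-NrasQ61K. Of the 7 markers 6 were above 0 in Tyr-NrasQ61K and 5 in MHCII-KO against WT, and Kit was below 0 in both. The part of these cell types in the levels of the ribosomal protein genes was not tested.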

How the data were processed

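RNA-seq of 9 mouse libraries, 3 per group, was analysed from 1 table of FPKM values deposited by the authors. The submitters' processing notes list TopHat, Cufflinks and Cuffdiff and the build mm10, without versions, and no source used here gives the annotation. Of 37819 entries, 18 with several values per library were left out. The test covered 16587 genes, those reaching an FPKM of 1 in 3 or more libraries. Their log2(FPKM + 1) values, a scale that understates the change of low genes, were modelled with limma 3.58.1 (R 4.3.3), 1 mean per group and a mean-variance trend. Genes with a Benjamini-Hochberg adjusted p of 0.05 or less were called. The procedure was tested on simulated data. Gene types, positions and coding sequences came from GENCODE M21, and start sequences from RefSeq.

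The members and gene lists were chosen with earlier results of these data known. Members named were those called, the 8 highest and 4 lowest in level, the 4 with the smallest p per comparison, the 5 highest and 5 lowest in the transgenic replicate 2 libraries (mean FPKM of at least 10), paralog pairs, and Rps6, Rps27a, Rpsa, Rplp0, Rplp1, Rplp2, Rps19, Rps19bp1, Rpl5 and Rpl11. Rpl18 and Rpl6 were named after their values were seen. Alternatives changed the pseudocount, filter, scaling, library weights, a replicate term and the libraries used. Depth is known only relative to WT replicate 1, and FPKM give no counting interval. Tables and plots were made in Python 3.11.15 with numpy 2.4.6, pandas 2.3.3 and matplotlib 3.10.9.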

Additional observations from a re-analysis of the deposited data

How the results depend on the processing

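No member was called in any comparison under a pseudocount of 0.1, either filter, median-ratio, quantile or equal-sum scaling, protein-coding genes only, only the 2 groups compared, any single library left out, or both transgenic replicate 2 libraries left out. With weights per library 74 members were called in each comparison with WT. Replicate numbers were not taken to pair the libraries, since of 9 same-number pairs only 3 had a correlation of deviations over 0.1 (range -0.04 to 0.33). Each WT library was matched to Tyr-NrasQ61K and to MHCII-KO, and each Tyr-NrasQ61K library to MHCII-KO. In 6 of these 9 comparisons the best match had its own number, never for replicate 3. In the reverse direction the best WT match of Tyr-NrasQ61K replicate 3 was WT replicate 3, with a correlation of 0.02. With a replicate block 13 members were called in Tyr-NrasQ61K and 9 in MHCII-KO against WT (894 and 777 genes in all), and with the block and median-ratio scaling, chosen after seeing the data, 1 and 0. Leaving out each library in turn, the members' median ran from -1.12 to -0.59 in Tyr-NrasQ61K against WT, -1.11 to -0.67 in MHCII-KO against WT and -0.31 to 0.26 in MHCII-KO against Tyr-NrasQ61K. With median-ratio scaling and without the transgenic replicate 2 libraries, also chosen after seeing the data, the medians against WT were -0.54 and -0.47. The deviation of Tyr-NrasQ61K replicate 2 was -0.37 with quantile normalization and -0.21 with equal FPKM sums. With equal FPKM sums the lowest libraries were MHCII-KO replicate 3 at -1.01 and Tyr-NrasQ61K replicate 1 at -0.91, so Tyr-NrasQ61K replicate 2 no longer stood lowest. The protein-coding genes tested made up 2.46% to 9.01% of a library's FPKM sum, so this scaling mostly follows other entries. The cause of these changes was not tested.

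The log2 fold change of some named members, none of them called, changed sign. For Rpl35, Tyr-NrasQ61K against WT, it was -0.68 with library weights, -0.17 to 0.58 leaving out single libraries. For Rps19bp1, Tyr-NrasQ61K against WT, it was 0.0754 with median-ratio scaling and median-ratio scaling with a replicate block, 0.00598 with quantile normalization, 0.18 with equal FPKM sums, 0.0203 with median-ratio scaling without the transgenic replicate 2 libraries, -0.34 to 0.0936 leaving out single libraries. For Rps9, Tyr-NrasQ61K against WT, it was 0.00379 with median-ratio scaling and median-ratio scaling with a replicate block, 0.20 with quantile normalization, 0.0794 with equal FPKM sums, -0.43 to 0.027 leaving out single libraries. For Rplp2, Tyr-NrasQ61K against WT, it was 0.14 with median-ratio scaling and median-ratio scaling with a replicate block, 0.36 with quantile normalization, 0.21 with equal FPKM sums, -0.27 to 0.20 leaving out single libraries. For Rps16, Tyr-NrasQ61K against WT, it was -0.70 to 0.0142 leaving out single libraries. For Rps19, Tyr-NrasQ61K against WT, it was 0.0401 with quantile normalization. For Rpl35, MHCII-KO against WT, it was 0.00482 with median-ratio scaling and median-ratio scaling with a replicate block. For Rps9, MHCII-KO against WT, it was 0.027 with median-ratio scaling and median-ratio scaling with a replicate block, 0.058 with quantile normalization. For Rplp2, MHCII-KO against WT, it was 0.13 with median-ratio scaling and median-ratio scaling with a replicate block, 0.14 with quantile normalization, 0.0277 with median-ratio scaling without the transgenic replicate 2 libraries. For Rps16, MHCII-KO against WT, it was -0.63 to 0.0767 leaving out single libraries. For Rpl21, MHCII-KO against Tyr-NrasQ61K, it was -0.14 with equal FPKM sums. For Rpl7a, MHCII-KO against Tyr-NrasQ61K, it was -0.0479 with equal FPKM sums, -0.0292 with library weights. For Rpl35, MHCII-KO against Tyr-NrasQ61K, it was 0.24 with library weights. For Rps19bp1, MHCII-KO against Tyr-NrasQ61K, it was 0.14 with library weights.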

Other observations

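Of 13 genes that control translation in response to growth signals, none was called in any comparison, and against WT 8 were above and 5 below 0 in Tyr-NrasQ61K and 6 and 7 in MHCII-KO. Eif4ebp2, a repressor of cap-dependent translation that mTOR inactivates, was at 6.497, 7.47 and 7.68 FPKM in the WT, 11.1, 18.99 and 17.2 in the Tyr-NrasQ61K and 12.8, 14.0 and 19.9 in the MHCII-KO libraries. All 6 transgenic libraries lay above all WT libraries, and the log2 fold changes were 1.0 in Tyr-NrasQ61K (adjusted p = 0.208, limma) and 0.99 in MHCII-KO against WT (adjusted p = 0.260, limma). All libraries of the group lay above WT in 4 of the 13 genes in Tyr-NrasQ61K and 2 in MHCII-KO. Of all 16587 genes tested this held for 1356 and 1322. Rptor, the scaffold of mTOR complex 1, was at 10.6, 12.6 and 8.83 FPKM in the WT, 15.4, 39.9 and 16.1 in the Tyr-NrasQ61K and 12.6, 25.04 and 24.7 in the MHCII-KO libraries. Rptor was highest in Tyr-NrasQ61K replicate 2, where most ribosomal protein genes were lowest. Its log2 fold changes were 0.96 (adjusted p = 0.326, limma) in Tyr-NrasQ61K and 0.85 (adjusted p = 0.337, limma) in MHCII-KO against WT. Eif4e, the cap-binding protein that these repressors hold, lay the other way, at 12.6, 7.66 and 11.7 FPKM in the WT, 7.48, 2.27 and 7.48 in the Tyr-NrasQ61K and 6.97, 2.90 and 4.86 in the MHCII-KO libraries, with log2 fold changes of -0.89 (adjusted p = 0.341, limma) and -1.01 (adjusted p = 0.329, limma). Eif4ebp1, a repressor related to Eif4ebp2, had log2 fold changes of -0.57 (adjusted p = 0.414, limma) and -0.81 (adjusted p = 0.329, limma). Mtor itself was at 5.95 to 8.31 FPKM in the 9 libraries. Larp1, a repressor that binds the TOP tract, was at 11.1 to 15.0 FPKM.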
